A study of Drosophila melanogaster with 6 samples.

Results

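The epidermal growth factor receptor (EGFR) pathway of *Drosophila* was examined through 7 genes: the ligands *vn* and *spi*, the ligand-processing protease *rho*, the receptor *Egfr*, the transcriptional effector *pnt* and the inhibitors *aos* and *sty*. The genes were taken by name for their place in the pathway, and the rule that picks them uses no measured value, although earlier results of these data were known when they were chosen. A peak was assigned to a gene when it overlapped the gene body or the 5 kb on either side in the dm6 genome. Peaks of the 6 libraries that shared at least 1 bp were merged into intervals, and 104 of the 45905 intervals of the whole series lay at these 7 loci. At 54 of the 104 (51.9%) every library had a peak, against 19441 of all intervals (42.4%).

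Chromatin accessibility had been measured by ATAC-seq, in which the Tn5 transposase inserts sequencing adapters into open DNA, in wing imaginal discs of 3 genotypes with 2 biological replicates each. The discs expressed GFP (control), an RNAi construct against *Cdk1* (*Cdk1-i*), whose product drives entry into mitosis, or *fzr*, an activator of the anaphase-promoting complex whose expression turns mitotic cycles into endocycles. In all 3 genotypes the transgene was driven by *tub*-Gal4 under the temperature-sensitive repressor *tub*-Gal80, that is in every cell of the disc, with larvae held 7 days at 17 °C (driver off) and 2 days at 31 °C (driver on). Discs of many larvae were pooled in a library, whole discs carry myoblasts and tracheal cells beside the epithelium, and fewer cells of a type cannot be told apart from less accessible DNA per cell. Each library is called here by the genotype on its label. In 4 cases the name of the peak list swaps *Cdk1-i* for *fzr* or the reverse, so a difference between these genotypes is uncertain in its name, whereas a comparison of all 4 libraries with a cell cycle block against the 2 GFP libraries does not depend on it.

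Each library came as a list of 27119 to 36715 peaks, with *fzr* 2 the shortest list and GFP 1 the longest. The read depth is unknown, since the lists hold no counts. The strength of a peak is given here as the percentile of its fold enrichment over local background within its own list, so that 100 is the strongest peak of that library, and a library without a peak in an interval is set to 0. An absent peak means that nothing passed the peak caller's threshold, not that the DNA was closed. An interval is called lost in a genotype when both GFP libraries and neither library of the genotype had a peak, and gained in the reverse case. It is called higher or lower when every library of the genotype lay above or below both GFP libraries. Since an absent peak is set to 0, every lost interval is also counted as lower and every gained interval as higher. With 2 libraries against 2, no two-sided exact permutation test can give a p below 0.333, and 4 against 2 cannot go below 0.0667, so the values are described without a test. For marker genes, a peak was counted when it lay within 500 bp of any annotated 5′ end of the gene. By this count the 5′ ends of 7 of 7 wing disc genes (*nub*, *rn*, *sd*, *wg*, *vg*, *ap* and *Doc2*) had a peak in all 6 libraries, as did 4 of 5 myoblast genes (the defining gene *twi* in none), 2 of 2 tracheal genes, 2 of 3 haemocyte genes (*NimC1* had no interval), 1 of 3 neuronal genes (*elav*, while *nSyb* had it in none) and 0 of 2 fat body genes. The number of genes with such a peak was the same in every library for each of these lists except the neuronal list, where it was 1 or 2. The part of the other cell types in the values was not tested.

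In the fly, EGFR signalling starts when a ligand binds the receptor tyrosine kinase Egfr and runs through Ras, Raf and the MAP kinase Rolled to the nucleus. There the ETS-domain activator Pointed turns target genes on, and the repressor Capicua, which binds TGAATGAA-type sites, is removed from them. Several targets feed back: *rho* makes more active ligand, whereas *aos* and *sty* restrain the pathway. In the wing disc the pathway is known for setting up the notum, through *vn*, and the wing veins, through *rho*.

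The DNA in front of the strongest 5′ ends of the group is shown first. The 250 bases upstream of an annotated 5′ end are given along the strand of the gene, 5′ to 3′, from the RefSeq copy of the dm6 genome. Capitals mark matches, on either strand, to 4 sets of letters that were searched. The letters CCGGAAG stand for sites of the ETS family, to which Pointed belongs. The letters TGAATGAA stand for the repressor Capicua. The letters AACCGGTT stand for Grainyhead, an epithelial factor, and read the same on both strands. The letters GAGAGAG stand for GAGA factor, and matches within a longer run overlap each other. No set of letters contains another. The *rho*, *vn* and central *pnt* promoters are chosen because their peaks ranked among the strongest of every library, and the distal *pnt* promoter because it had a peak in 2 libraries alone.
rho, chr3L:1463561-1463810, plus strand: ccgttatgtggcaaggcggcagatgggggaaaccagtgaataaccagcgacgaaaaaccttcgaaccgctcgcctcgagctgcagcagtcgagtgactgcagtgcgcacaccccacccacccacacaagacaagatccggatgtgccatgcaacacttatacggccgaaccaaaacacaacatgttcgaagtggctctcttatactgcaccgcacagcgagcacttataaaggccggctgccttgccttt
vn, chr3L:5845665-5845914, minus strand: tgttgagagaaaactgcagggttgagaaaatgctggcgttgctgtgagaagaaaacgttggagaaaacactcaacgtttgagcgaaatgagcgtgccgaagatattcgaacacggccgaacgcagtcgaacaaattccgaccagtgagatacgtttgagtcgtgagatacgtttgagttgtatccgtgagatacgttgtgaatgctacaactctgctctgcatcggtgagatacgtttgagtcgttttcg
pnt, central promoter, chr3R:23314316-23314565, minus strand: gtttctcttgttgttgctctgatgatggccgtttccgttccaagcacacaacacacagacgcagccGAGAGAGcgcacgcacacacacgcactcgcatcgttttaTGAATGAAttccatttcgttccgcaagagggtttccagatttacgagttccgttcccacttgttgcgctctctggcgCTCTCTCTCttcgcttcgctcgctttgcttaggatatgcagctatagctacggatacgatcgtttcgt
pnt, distal promoter, chr3R:23346168-23346417, minus strand: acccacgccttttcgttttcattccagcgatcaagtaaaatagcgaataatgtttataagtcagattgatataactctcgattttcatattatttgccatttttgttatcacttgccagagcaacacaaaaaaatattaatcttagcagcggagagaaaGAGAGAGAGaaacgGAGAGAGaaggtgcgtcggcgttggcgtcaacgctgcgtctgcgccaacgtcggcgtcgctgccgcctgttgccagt
Neither the *rho* nor the *vn* sequence holds any of the letters searched. The central *pnt* promoter holds TGAATGAA and runs of GAGA letters on both strands, and the distal promoter holds GAGA letters alone.

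Around peak summits, 200 bases are shown for 2 sets of intervals, in the same orientation. The first set holds TGAATGAA in an interval that had a peak in all 6 libraries. The second set has no match and is shown because these peaks of the controls were lost in blocked discs.
aos, upstream, chr3L:16484121-16484320, minus strand: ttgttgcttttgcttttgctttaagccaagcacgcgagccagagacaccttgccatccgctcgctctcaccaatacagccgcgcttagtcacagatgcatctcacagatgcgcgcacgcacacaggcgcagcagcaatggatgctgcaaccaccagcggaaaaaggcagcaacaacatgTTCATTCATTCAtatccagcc
pnt, intron, first, chr3R:23304767-23304966, minus strand: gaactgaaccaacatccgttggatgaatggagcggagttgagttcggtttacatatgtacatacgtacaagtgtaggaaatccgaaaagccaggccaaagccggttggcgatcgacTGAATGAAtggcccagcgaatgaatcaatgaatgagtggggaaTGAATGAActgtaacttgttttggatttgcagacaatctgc
pnt, intron, second, chr3R:23301154-23301353, minus strand: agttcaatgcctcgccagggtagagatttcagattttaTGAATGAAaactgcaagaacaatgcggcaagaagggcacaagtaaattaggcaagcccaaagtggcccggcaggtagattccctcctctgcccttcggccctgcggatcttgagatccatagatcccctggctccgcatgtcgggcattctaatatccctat
sty, intron, chr3L:3420351-3420550, minus strand: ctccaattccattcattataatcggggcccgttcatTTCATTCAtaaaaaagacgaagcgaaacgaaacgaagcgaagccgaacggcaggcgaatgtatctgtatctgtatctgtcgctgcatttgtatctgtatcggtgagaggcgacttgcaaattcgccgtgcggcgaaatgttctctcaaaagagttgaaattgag
rho, downstream, lost in Cdk1-i, chr3L:1472396-1472595, plus strand: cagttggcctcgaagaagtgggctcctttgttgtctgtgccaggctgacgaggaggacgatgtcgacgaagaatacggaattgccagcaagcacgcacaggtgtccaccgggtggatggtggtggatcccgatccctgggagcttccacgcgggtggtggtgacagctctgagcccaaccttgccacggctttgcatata
aos, intron, lost in both blocks, chr3L:16475060-16475259, minus strand: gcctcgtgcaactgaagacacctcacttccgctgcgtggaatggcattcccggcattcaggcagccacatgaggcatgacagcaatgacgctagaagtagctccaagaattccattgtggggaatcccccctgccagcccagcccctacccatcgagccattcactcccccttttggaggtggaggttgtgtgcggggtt
In the *aos* window, 2 matches overlap in a single run of letters near its 3′ end, read on the opposite strand, and the first *pnt* window holds 2 separate matches.

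Matches to the Capicua letters were found in 10 of the 104 summit windows (9.62%), against 1.69% of 45278 windows over all intervals with reference sequence. The 10 were spread over *pnt* (5), *sty* (2), *aos* (1), *spi* (1) and *Egfr* (1), and neither *vn* nor *rho* had any. With windows of 400 bases the share was 17 of 104 (16.3%) against 3.22%. Among intervals with a peak in every library it was 6 of 54 (11.1%) against 1.77%. GAGA letters were present in 11 windows (10.6%, against 5.16%), ETS letters in 2 (1.92%, against 1.11%) and Grainyhead letters in 0 (against 0.716%). In the 13 promoters of the 7 genes, read from 250 bases before to 50 after the 5′ end, GAGA letters occurred in 5 (38.5%, against 7.62% of 19253 promoters), in *Egfr*, *pnt* and *sty*. Capicua letters occurred in 1 promoter, the central *pnt* promoter (7.69%, against 2.82%), and ETS and Grainyhead letters in 0 (against 1.06% and 0.696%). The search had been planned for the promoters alone, and the summit windows were outside that plan. All of these are matches of letters in the reference and say nothing of whether a factor was bound.

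**Figure D1:**
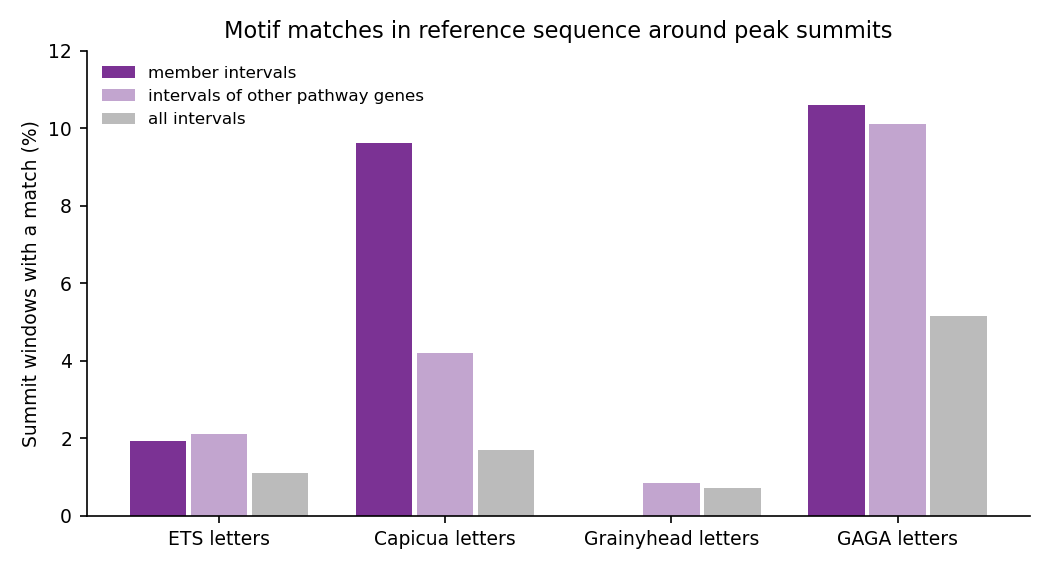
Share of 200-base summit windows (vertical axis, percent) that hold each of 4 sets of letters (horizontal axis), for the 104 intervals of the 7 genes, the 238 intervals of 24 other pathway genes and all 45278 windows. The Capicua letters are in 9.62% of the windows of the 7 genes, 4.2% of those of the other pathway genes and 1.69% of all windows.

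*vn*, which encodes a secreted neuregulin-like ligand, lies on 3L at 5813338–5845664 on the minus strand (FBgn0003984) and had 18 intervals, 11 of them with a peak in every library. Its only annotated 5′ end lay under its strongest interval (3L 5845626–5845992). The percentile there was 91.5 and 99 in GFP, 97.3 and 98.2 in *Cdk1-i*, and 97.5 and 97.5 in *fzr*. GFP 1 was the lowest library and GFP 2 the highest, so that the blocked discs lay within the spread of the controls.

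Of the 18 *vn* intervals, 3 were higher in *Cdk1-i* and 1 in *fzr*, all inside introns. Over all intervals, 18.6% were higher in *Cdk1-i* and 5.79% in *fzr*, so the counts at *vn* do not stand out. The smaller rises in *Cdk1-i* were 11.5 points at 3L 5824911–5826809 (50.3 and 65.3 in GFP, 69.6 and 68.9 in *Cdk1-i*) and 5.15 points at 3L 5835239–5836322 (85 and 88 in GFP, 91.6 and 91.8 in *Cdk1-i*), and *fzr* was called at neither. At 3L 5840512–5840882 the percentile was 43.5 and 25.8 in GFP, 64.9 and 63.3 in *Cdk1-i*, and 59.4 and 37.9 in *fzr*. Both *Cdk1-i* libraries were above both controls (mean difference 29.4 points, replicate difference 17.7 in GFP and 1.57 in *Cdk1-i*), and *fzr* overlapped GFP. At 3L 5836531–5836825 it was 9.29 and 16.9 in GFP, 0 and 29.8 in *Cdk1-i*, and 40.4 and 46.1 in *fzr*. Here it was *fzr* that lay above the controls, by 30.1 points, the largest rise of any called interval of the group in that genotype. A weak intronic interval at 3L 5832831–5833196 was lost in *fzr*, with percentiles of 0.319 and 3.56 in GFP and 0.368 in *Cdk1-i* 2. The interval that stood lower in all 4 blocked libraries lay 35378 bp from the *vn* 5′ end, within the neighbouring gene *S6k* (3L 5809564–5810286), with 84.9 and 73.2 in GFP, 54.7 and 67.4 in *Cdk1-i*, and 65.6 and 51.7 in *fzr*.

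*spi*, which encodes the TGFα-like main ligand, made as a membrane-bound precursor, lies on 2L at 19567900–19577315 on the minus strand (FBgn0005672). It had 7 intervals, 5 of them in every library, and 3 annotated 5′ ends. Its strongest interval (2L 19574865–19576675), over the middle 5′ end, reached 68 and 81 in GFP, 73.5 and 74.1 in *Cdk1-i*, and 72.4 and 75.9 in *fzr*. All blocked libraries lay between the 2 controls. No interval lay within 500 bp of the outermost 5′ end in any library.

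In the interval holding the innermost *spi* 5′ end (2L 19572574–19573504), the percentile of the strongest peak was 46.6 and 48.4 in GFP, 60.7 and 59.1 in *Cdk1-i*, and 56.3 and 54.1 in *fzr*. Means were 47.5 ± 1.28 (SD, n = 2) in GFP, 59.9 ± 1.18 in *Cdk1-i* and 55.2 ± 1.6 in *fzr*. The interval merged a peak over the 5′ end with another upstream of it, and the 46.6 of GFP 1 came from the upstream peak. Over the 5′ end itself the percentile was 11.9 and 48.4 in GFP, 60.7 and 59.1 in *Cdk1-i*, and 56.3 in *fzr* 1. The upstream peak had 46.6 and 44.2 in GFP, 35.4 and 42.7 in *Cdk1-i*, and 34.6 in *fzr* 1. In *fzr* 2 a single peak spanned both. By the strongest peak, the 4 blocked libraries lay above both controls by 10 points on average, while replicates differed by 1.81, 1.67 and 2.26 points. The small difference of 1.81 points in GFP thus compares different peaks, and over the 5′ end the controls lay far apart (11.9 and 48.4). The interval was the only one of the 104 that was higher in all 4 blocked libraries (0.962%, against 3% of all intervals). Downstream, within *CG13077*, an interval (2L 19565646–19565879) was also higher in *Cdk1-i*, by 28.3 points. Its percentile was 31.9 and 0 in GFP, 34.8 and 53.8 in *Cdk1-i*, and 71.7 and 0 in *fzr*, so GFP 2 and *fzr* 2 had no peak and the rise over GFP 1 was small in *Cdk1-i* 1.

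*rho* encodes the intramembrane protease that cleaves the Spi precursor. It lies on 3L at 1463811–1468944 on the plus strand (FBgn0004635), within the span of *Ptp61F*, a tyrosine phosphatase gene. All 5 of its intervals overlap *Ptp61F*, so they cannot be given to *rho* alone by position. The interval over the *rho* 5′ end (3L 1463419–1463845), within which the printed promoter sequence lies, had percentiles of 98.5 and 98.8 in GFP, 98.8 and 98.6 in *Cdk1-i*, and 98.2 and 98 in *fzr*. The *fzr* libraries were the lowest, by a mean difference of −0.567 points from GFP. An interval beyond the 3′ end (3L 1469861–1470804) was equally strong, with 98.6 and 99.2 in GFP, 98.6 and 98.3 in *Cdk1-i*, and 97.8 and 99.6 in *fzr*. These 2 intervals stayed near the top of every list. The first was called lower in *fzr*. The second was called lower in *Cdk1-i* (mean difference −0.465 points), with GFP 1 and *Cdk1-i* 1 equal to the digits given. With a mean of 98.7 over the 6 libraries, the second was the strongest of the 104.

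The other 3 *rho* intervals all stood lower in the 4 blocked libraries, as did 12% of all intervals. At 3L 1472248–1472832, 8437 bp from the 5′ end, the percentile was 40.8 and 72.3 in GFP, 0 and 0 in *Cdk1-i*, and 0 and 32.6 in *fzr*. The peak was thus lost in *Cdk1-i*, remained weaker in *fzr* 2, and the mean difference of −56.6 points in *Cdk1-i* was the largest fall of any called interval of the group (−40.3 in *fzr*). At 3L 1458393–1458851, 4960 bp upstream, it was 43.9 and 28.7 in GFP, 3.32 and 12 in *Cdk1-i*, and 17.9 and 0 in *fzr*. At 3L 1459387–1460275, 3536 bp upstream, it was 14.7 and 27.8 in GFP, 3.8 and 4.72 in *Cdk1-i*, and 1.04 and 2.11 in *fzr*, with a peak somewhere in the interval in every library. These were not all the same peak. GFP 1 had a peak only at −4412 to −4082 bp from the 5′ end, and *Cdk1-i* 1 only at −3880 to −3594 bp. The GFP 2 peak spanned both positions. The differences between the controls were wide at all 3 (31.5, 15.2 and 13.1 points).

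**Figure D2:**
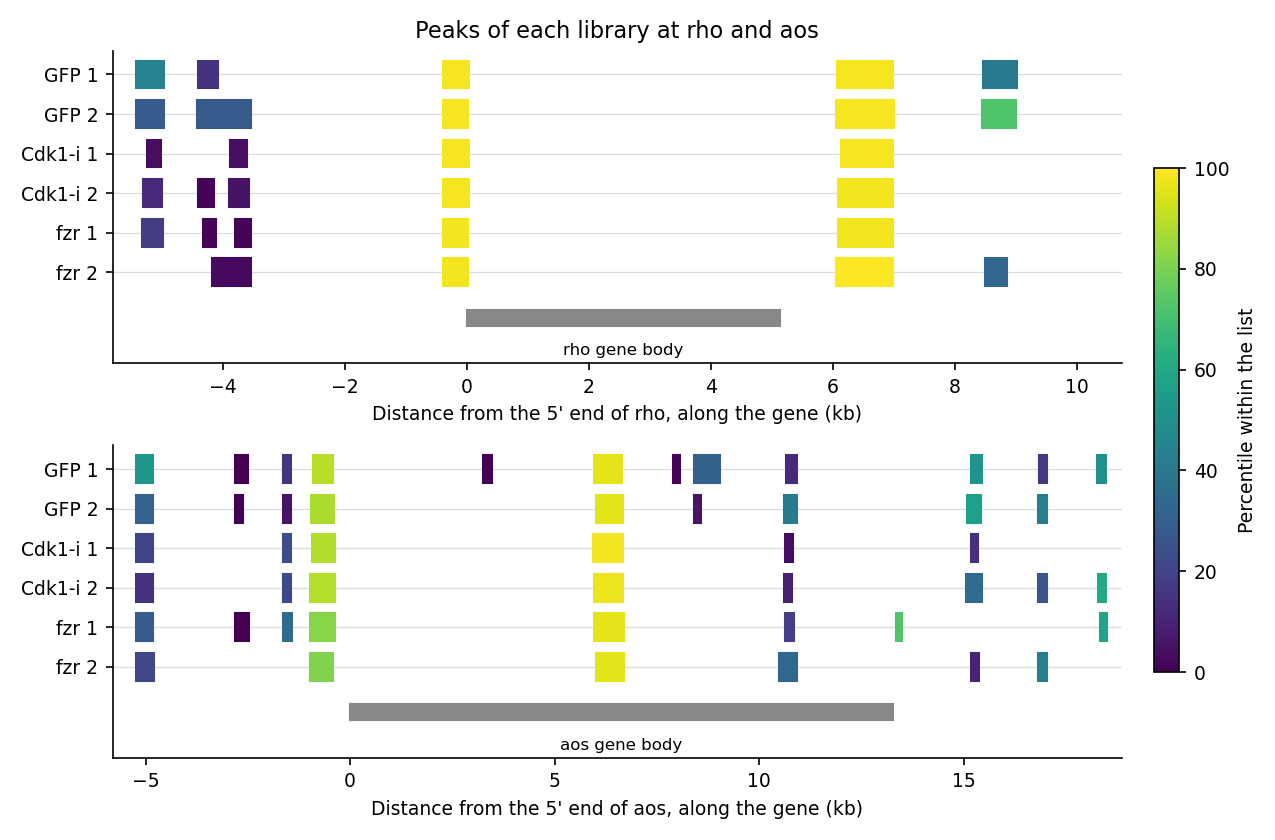
Peaks of each library (rows) at *rho* and *aos*, drawn to scale against the distance in kb from the 5′ end along the gene (horizontal axis), with the colour giving the percentile within the library's list and the grey bar the gene body. At *rho*, the 5′ end and the interval beyond the 3′ end are near the top of all 6 lists, while the interval 8437 bp from the 5′ end has peaks in both GFP libraries and in *fzr* 2.

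*Egfr*, the receptor gene, lies on 2R at 21522420–21559977 on the plus strand (FBgn0003731) and has 2 annotated 5′ ends. It had 20 intervals, 10 with a peak in every library. The interval over the first 5′ end had percentiles of 80.4 and 53.5 in GFP, 77.4 and 62.9 in *Cdk1-i*, and 67.4 and 0 in *fzr*. The interval over the second 5′ end had 32.8 and 73.8 in GFP, 75.5 and 75.2 in *Cdk1-i*, and 64.1 and 64 in *fzr*. Both promoters varied by more between the GFP replicates (27 and 41.1 points) than between the group means of GFP and *Cdk1-i* (3.21 and 22). The second was called higher in *Cdk1-i*, although its libraries (75.5 and 75.2) lay only narrowly above GFP 2 (73.8). In *fzr*, the mean difference from GFP was −33.3 points at the first promoter, where *fzr* 2 had no peak, and 10.7 points at the second, with overlapping libraries at both. The strongest *Egfr* interval was in the first intron, 1018 bp from the first 5′ end, with 82.6 and 94.7 in GFP, 86.5 and 90 in *Cdk1-i*, and 81.7 and 94.4 in *fzr*, a pattern without separation of the genotypes.

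Of the 20 *Egfr* intervals, 2 were lower in all 4 blocked libraries, as were 12% of all intervals. The stronger, an intronic interval 789 bp upstream of the second 5′ end, had 59.9 and 65.3 in GFP, 46.3 and 50.4 in *Cdk1-i*, and 47.7 and 39.5 in *fzr*, a mean difference of −16.6 points where the GFP replicates differed by 5.41. The weaker, 3354 bp beyond the second 5′ end, had 7.22 and 13.7 in GFP, 0 and 0 in *Cdk1-i*, and 6.98 and 0.306 in *fzr*, and was therefore lost in *Cdk1-i*. Another interval, downstream of *Egfr* within *twz*, was lost in *fzr*, from percentiles of 0.741 and 6.35 in GFP. Both losses were among peaks in the weakest part of the lists.

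*pnt* encodes the ETS-domain activator through which the MAP kinase acts on target genes. It is the longest of the 7 genes (3R 23290231–23346167, minus strand, FBgn0003118) and had the most intervals, 27, of which 13 were in every library. Its 3 annotated 5′ ends differed. At the central end (3R 23314303–23314728), whose sequence carries the Capicua and GAGA letters, the percentile was 99.3 and 97.4 in GFP, 98.8 and 98.9 in *Cdk1-i*, and 98.6 and 96.6 in *fzr*. At the distal end (3R 23346153–23346466) only GFP 2 (46.4) and *fzr* 2 (40.2) had a peak. At the proximal end no interval covered the annotated base, but every library had a peak within 500 bp (3R 23295340–23295781), with 92.1 and 97.7 in GFP, 96.2 and 96.2 in *Cdk1-i*, and 94.9 and 94.8 in *fzr*. The central and proximal ends were thus open in all genotypes, and peaks at the distal end did not follow genotype.

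The largest called changes at *pnt* lay in an intron close to the central promoter. The interval at 3R 23316164–23316417, 1849 bp upstream of that promoter, had 33.7 and 38.4 in GFP, 8.23 and 12.1 in *Cdk1-i*, and 0 and 0 in *fzr*. It was lost in *fzr* (−36.1 points) and lower in *Cdk1-i* (−25.9 points), while the GFP replicates differed by 4.69 points. A short distance away, at 3R 23315210–23315616, the percentile was 0 and 52.2 in GFP, 57.4 and 63.1 in *Cdk1-i*, and 58.8 and 44 in *fzr*. This interval was higher in *Cdk1-i* by 34.2 points, the largest rise of any called interval of the group, but GFP 1 had no peak and the replicates of GFP differed by 52.2 points. In *fzr*, a further intronic interval (3R 23338506–23338820) was lost, from 0.267 and 24.4 in GFP, and a weak interval (3R 23336670–23337026) was higher by 7.72 points, with 0 and 0.946 in GFP, 0 and 2.61 in *Cdk1-i*, and 11.1 and 5.34 in *fzr*.

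The *pnt* intronic intervals printed above for their Capicua letters did not share a direction. At 3R 23304727–23305133 the percentile was 54.6 and 77.9 in GFP, 74.3 and 76.7 in *Cdk1-i*, and 82.1 and 73.2 in *fzr*, and the groups overlapped. At 3R 23300886–23301676 it was 64.4 and 62 in GFP, 68.6 and 72.7 in *Cdk1-i*, and 60.4 and 73.4 in *fzr*, with *Cdk1-i* alone above the controls, by 7.44 points.

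*aos*, which encodes a secreted antagonist that binds Spi, is a classical readout of the pathway. It lies on 3L at 16470386–16483650 on the minus strand (FBgn0004569), inside the span of *CG33158*, which all 13 of its intervals overlap. Only 4 of the 13 (30.8%) had a peak in every library, the lowest share of the 7 genes. No interval covered its 5′ end. The nearest, 375 bp upstream (3L 16484025–16484642), holds the overlapping Capicua letters and had 89.3 and 87.7 in GFP, 88.5 and 88.8 in *Cdk1-i*, and 82.2 and 81 in *fzr*. The *fzr* libraries lay below the controls there, with a mean difference of −6.9 points and a difference of 1.6 points between the GFP replicates, and *Cdk1-i* overlapped GFP. The strongest interval, in an intron (3L 16476960–16477710), had 96 and 95.6 in GFP, 98.2 and 97.4 in *Cdk1-i*, and 96.1 and 95.6 in *fzr*. It was called higher in *Cdk1-i*, by 2.01 points.

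Among the weaker intervals at *aos*, most calls were losses or falls. The exception, 1429 bp upstream (3L 16485079–16485302), was higher in *Cdk1-i* by 12.1 points, with 15.6 and 4.71 in GFP, 22.8 and 21.7 in *Cdk1-i*, and 34.3 and 0 in *fzr*. Over all intervals, falls also outnumbered rises in *fzr* (26.4% lower, 5.79% higher) and in all 4 blocked libraries (12% and 3%). In *Cdk1-i* they did not (17.1% lower, 18.6% higher). At 3L 16474599–16475241, whose summit sequence is printed above, the percentile was 30.4 and 5.6 in GFP and 0 in all 4 blocked libraries. It was the only one of the 104 intervals lost in both genotypes (0.962%, against 1.7% of all intervals). At 3L 16468213–16468594, beyond the 3′ end, the percentile was 51.9 and 56.9 in GFP, 14 and 34.2 in *Cdk1-i*, and 0 and 9.69 in *fzr*. The mean difference from the controls was −39.9 points over the blocked libraries and −49.5 points in *fzr*, the largest fall of any called interval in that genotype, with 5.05 points between the GFP replicates. Another interval, 4802 bp upstream (3L 16488452–16488895), was lower in all 4 blocked libraries, with 53.1 and 30.5 in GFP, 20.1 and 14.2 in *Cdk1-i*, and 28.3 and 21.6 in *fzr*. The remaining loss in *Cdk1-i* was a peak at the foot of the lists (3L 16486126–16486474, 0.0572 and 0.743 in GFP).

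*sty* encodes Sprouty, an intracellular inhibitor of signalling by receptor tyrosine kinases. It lies on 3L at 3401153–3424935 on the minus strand (FBgn0014388) and had 14 intervals, 8 in every library. Over its inner 5′ end (3L 3417925–3418140) the percentile was 82.2 and 0 in GFP, 69.6 and 65 in *Cdk1-i*, and 67.4 and 0 in *fzr*. GFP 2 and *fzr* 2 had no peak over this end, although each had a peak within 500 bp of it. Near the outer 5′ end a peak within 500 bp was present in GFP 1, GFP 2 and *Cdk1-i* 2, at 3L 3425121–3425566, with 18 and 9.93 in GFP, 0 and 6.54 in *Cdk1-i*, and 0 and 0 in *fzr*. This interval was lower in the 4 blocked libraries and lost in *fzr*. The strongest interval, an intronic interval of 1579 bp (3L 3408658–3410236), had 88.5 and 84.3 in GFP, 85.1 and 86.8 in *Cdk1-i*, and 89.9 and 87.7 in *fzr*, with overlapping groups.

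The other *sty* loss was also in *fzr*, in an intron at 3L 3411201–3411768, with 17.9 and 12.9 in GFP, 19.7 and 12.5 in *Cdk1-i*, and 0 and 0 in *fzr*. The intronic interval with Capicua letters printed above (3L 3419923–3420714) had 84.2 and 84.7 in GFP, 83.3 and 81.3 in *Cdk1-i*, and 78.7 and 80.8 in *fzr*. All 4 blocked libraries were below the controls, with a mean difference of −3.42 points and 0.463 points between the GFP replicates.

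**Figure D3:**
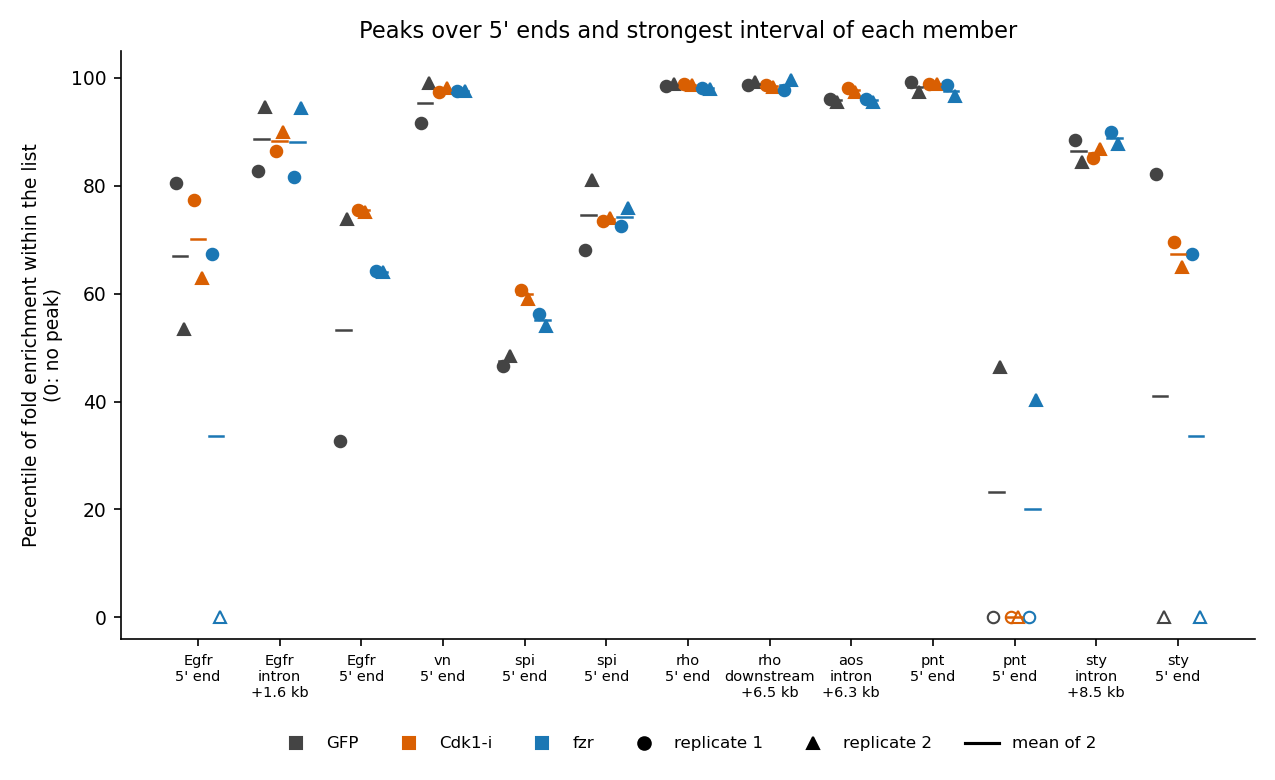
Percentile of fold enrichment within the list (vertical axis, 0 where there is no peak) in each of the 6 libraries, for the intervals over annotated 5′ ends and the strongest interval of each gene (horizontal axis, with the distance of intronic and downstream intervals from a 5′ end). Colours give the genotype, symbols the replicate, open symbols an absent peak and bars the mean of 2 libraries. The *rho*, *vn* and central *pnt* ends lie above 91.5 in every library, and the distal *pnt* end has a peak in GFP 2 and *fzr* 2 only.

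Over the 7 loci together, intervals called against GFP were about as frequent as over all intervals. In *Cdk1-i*, 0 of the 104 were gained (3.21% of all intervals), 4 were lost (3.85%, against 3.28%), 14 were higher (13.5%, against 18.6%) and 22 were lower (21.2%, against 17.1%). In *fzr*, 0 were gained (1.06% of all), 7 were lost (6.73%, against 6.07%), 4 were higher (3.85%, against 5.79%) and 26 were lower (25%, against 26.4%). In all 4 blocked libraries, 0 were gained (0.381% of all), 1 was lost, 1 was higher and 15 were lower (14.4%, against 12%). Both comparisons use the same GFP libraries, so their counts are not independent. The counts rest on having 2 controls: the share lower in all blocked libraries was 39.8% without GFP 1 (28.3% of all intervals) and 37% without GFP 2 (32.5% of all), and the share higher in them was 15% without GFP 2 (9.97% of all) and 7.89% without *fzr* 2 (8.61% of all). With every list limited to the 27119 peaks of highest −log10 q, the length of the *fzr* 2 list, 12.6% were higher and 12.6% lower in *fzr* (11.8% and 14.9% of all). The 15 intervals lower in all 4 were 3 each at *rho*, *aos*, *pnt* and *sty*, 2 at *Egfr*, 1 at *vn* and 0 at *spi*. By position, 6 of 63 intronic, 6 of 13 upstream, 3 of 17 downstream, 0 of 9 over a 5′ end and 0 of 2 in coding exons were among them. These classes are small and were not set against the same classes over all intervals.

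**Figure D4:**
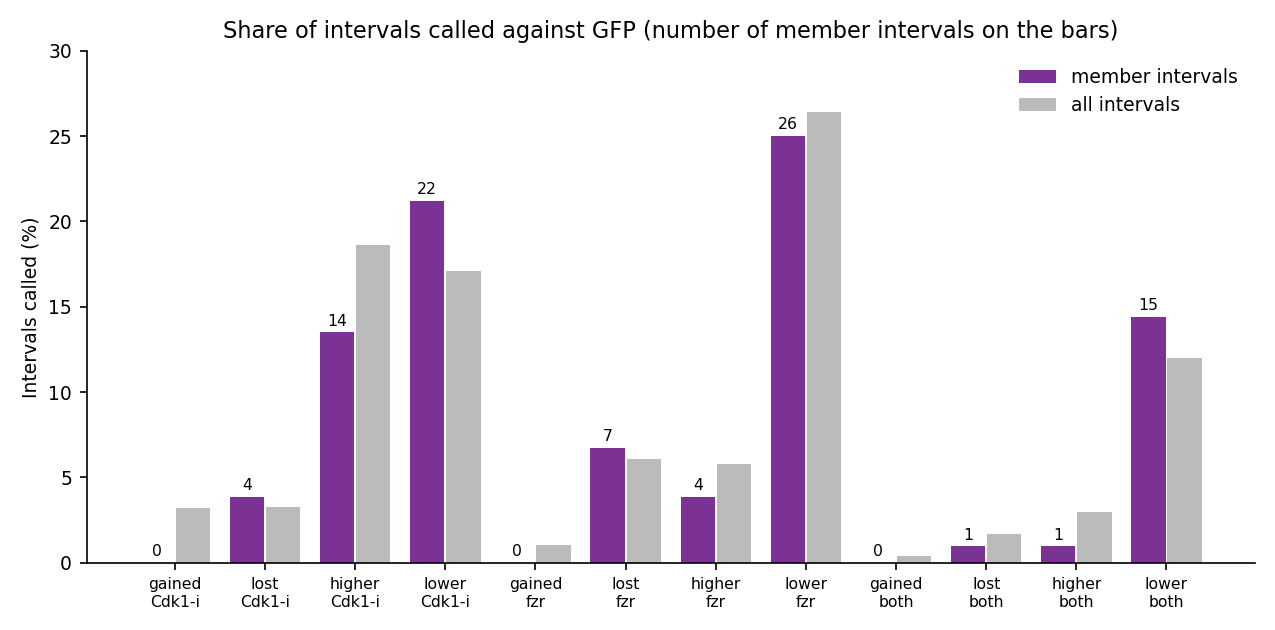
Percentage of intervals (vertical axis) gained, lost, higher or lower in *Cdk1-i*, in *fzr* and in all 4 blocked libraries (both) against GFP (horizontal axis), for the 104 intervals of the 7 genes and for all 45905 intervals, with the number of intervals of the genes on the bars. The bars of the genes lie near those of all intervals, with 14.4% against 12% lower in both blocks.

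**Figure D5:**
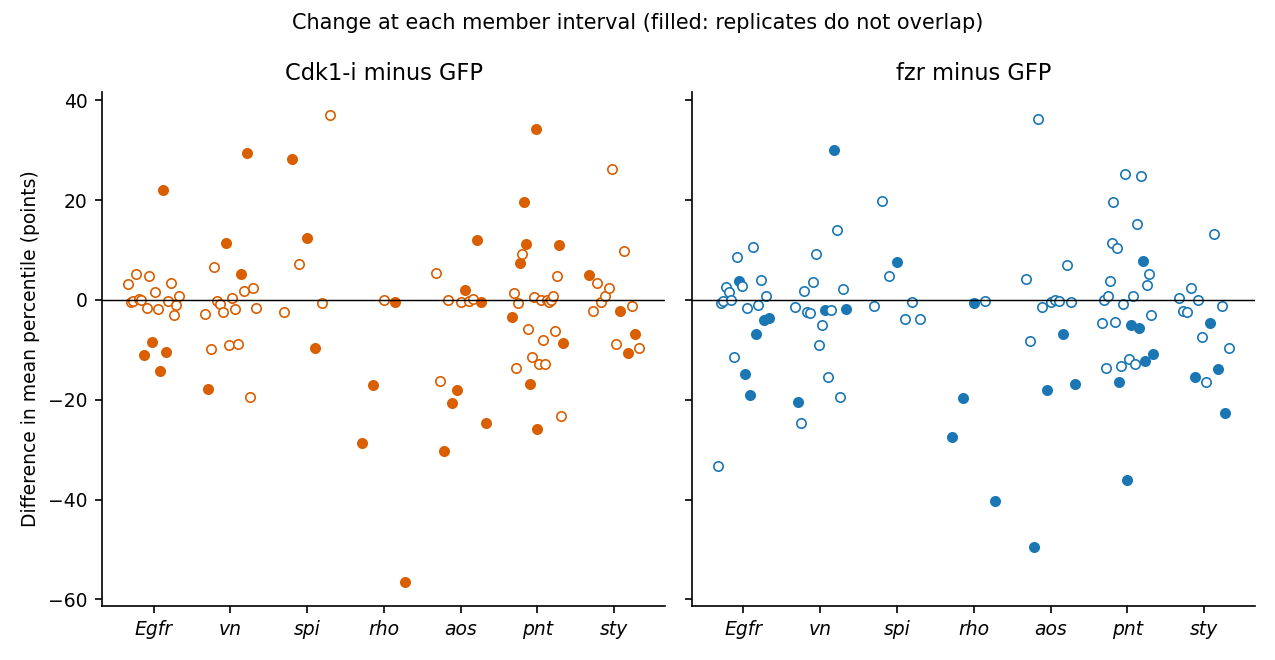
Difference in mean percentile from GFP (vertical axis, points) at each of the 104 intervals, by gene (horizontal axis), for *Cdk1-i* (left) and *fzr* (right). Filled points are intervals whose replicates do not overlap those of GFP, and the lowest filled points are the *rho* interval at −56.6 in *Cdk1-i* and the *aos* interval at −49.5 in *fzr*.

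The intervals with a peak in both controls were mostly found again in the blocked discs. Of 75 such intervals, 63 and 70 had a peak in *Cdk1-i* (88.7% ± 6.6, SD, n = 2) and 64 and 61 in *fzr* (83.3% ± 2.83). Over all intervals these shares were 91.5% ± 0.124 and 80.3% ± 6.82. Peaks of a single control were found in the other control at 87.2% of intervals (GFP 1 in GFP 2) and 85.2% (the reverse). With GFP 1 or GFP 2 left out, *Cdk1-i* held a peak at 83% and 82.6% of the remaining control's intervals and *fzr* at 77.8% and 75.6%. These are means of 2 libraries, and the means lay below the controls. Over all intervals *Cdk1-i* had 83.3% and 84.5%, beside 85% and 83.5% between the controls. The *Cdk1-i* libraries differed: presence at the 104 intervals matched GFP 1 and GFP 2 at 75% and 76.9% in *Cdk1-i* 1. In *Cdk1-i* 2 it matched at 81.7% and 83.7%, beside 76.9% between the controls.

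At the 54 intervals with a peak in every library, the median difference from GFP was −0.267 points in *Cdk1-i* (25 up and 29 down) and −1.34 points in *fzr* (18 up and 36 down). The same medians over all 19441 such intervals were 0.437 and −4.17 points. The median size of the difference at the 54 intervals, 4.79 points in *Cdk1-i* and 4.03 in *fzr*, stands beside median differences between replicates at the same intervals of 7.89 points in GFP, 1.75 in *Cdk1-i* and 6.33 in *fzr*. The former are differences of means of 2 libraries and the latter of single libraries, so their sizes are not directly comparable. The signs of the medians were not stable. Without GFP 2, the *Cdk1-i* median became 0.64, while the *fzr* median shrank to −0.00997 without a change of sign. With every list limited to its 27119 peaks of highest −log10 q, the *fzr* median became 0.801.

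Other genes that transmit or restrain EGFR signalling, 24 in number, held 238 intervals, of which 138 (58%) had a peak in every library. In *Cdk1-i*, 5 were gained (2.1%), 5 lost (2.1%), 43 higher (18.1%) and 42 lower (17.6%). In *fzr*, 1 was gained (0.42%), 6 lost (2.52%), 16 higher (6.72%) and 62 lower (26.1%). All 4 blocked libraries were lower at 26 (10.9%) and higher at 5 (2.1%). Over all intervals the shares gained, lost, higher and lower were 3.21%, 3.28%, 18.6% and 17.1% in *Cdk1-i* and 1.06%, 6.07%, 5.79% and 26.4% in *fzr*. The higher and lower shares lay close to these in both genotypes, and the gained and lost shares were below them, most in *fzr*. A peak within 500 bp of a 5′ end was present in all 6 libraries for 14 of the 24, against 31.7% of 13945 protein-coding genes. Among the 14 were *Krn*, which encodes a second TGFα-like ligand (97.2 and 99.1 in GFP, 97.5 and 98.2 in *Cdk1-i*, 97.8 and 98.9 in *fzr*), and *S*, which encodes the Spi chaperone Star (98.4 and 96.9 in GFP, 97.9 and 98.4 in *Cdk1-i*, 98.4 and 92.6 in *fzr*).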

How the data were processed

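The 6 ATAC-seq peak lists were used, 2 libraries for each of GFP, *Cdk1-i* and *fzr*. Reads had been mapped to dm6 by the authors (BWA-MEM in nf-core/atacseq), blacklisted regions taken out, and peaks called library by library with MACS2. The deposited fold enrichment of each peak is a ratio to the local background. MACS2 also supplied the −log10 p and the −log10 q of the peaks, as deposited, and the deposited score was not used. DESeq2, which the authors ran on read counts, was not used here. The depth is unknown, because the lists hold no counts. The lowest −log10 q lay between 2.00 and 2.16, and the shortest peak between 143 and 197 bp, depending on the list.

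Grouping followed the labels, although 4 list names swap *Cdk1-i* and *fzr*, and the swap was run as an alternative. Peaks overlapping by at least 1 bp were merged, each interval took the strongest peak of a library, and percentiles were ranks of fold enrichment within a list. Gene positions and 5′ ends came from the dm6 annotation, and sequences from the RefSeq copy of dm6, in which every peak end lay within its chromosome. Member genes, gene lists, motifs and tests were chosen with earlier results of these data known. Intervals were named by rule: those over 5′ ends, the strongest of each gene, every gained or lost interval (beyond 10 in a comparison, those with the highest mean percentile), and the 3 largest rises and falls among non-overlapping intervals in each comparison. The others named (the *vn* interval within *S6k*, the *rho* interval 3536 bp upstream, the 2 smaller rises at *vn*, the *Egfr* interval near its second 5′ end, the *aos* intervals 4802 and 1429 bp upstream, and the intervals with Capicua letters) were chosen after their values were seen.

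The code was tested on simulated lists with planted changes. The alternatives comprised only peaks with −log10 q of at least 5, lists cut to the 27119 peaks of highest −log10 q, merging at an overlap of 0.5 of the shorter peak, windows of the gene body alone or with 20 kb, percentiles from −log10 p, each library left out in turn, the swapped labels, and a replicate block. Peaks of at least 197 bp were added after the lists were seen. The software was Python 3.11.15 with NumPy 2.4.6 and SciPy 1.17.1, and figures were drawn with Matplotlib 3.10.9.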

Additional observations from a re-analysis of the deposited data

How the results depend on the processing

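Over 15 alternatives and 17 results, 153 of 244 values stayed within the limits set for an unchanged value, 83 moved and 8 changed sign. Shares below are percentages of the intervals of the 7 genes and medians are in points. The causes were not tested, except that fewer libraries must separate more often by construction. At a minimum −log10 q of 5, gained in *Cdk1-i* was 2, higher in both blocks was 2, and the *Cdk1-i* median was 0.318. With every list cut to 27119 peaks, gained was 1.05 in *Cdk1-i* and 1.05 in *fzr*, lost in *fzr* 2.11, higher in *fzr* 12.6, lower in *fzr* 12.6, found in *fzr* 91.3, lost, higher and lower in both 2.11, 5.26 and 8.42, and the medians were −0.489, 0.801 and 0.419 in *Cdk1-i*, *fzr* and both. With the gene body alone, found in *fzr* was 86.5, lower in both 8.11, and the medians were 0.209 in *Cdk1-i* and −0.594 in *fzr*. With 20 kb, gained in *Cdk1-i* was 0.515, lost and higher in both 1.55 and 1.55, and the *fzr* median −1.76. Ranking by −log10 p gave a *fzr* median of −0.916 and higher in both of 1.92. With exchanged labels, lost was 6.73 in *Cdk1-i* and 3.85 in *fzr*, higher 3.85 and 13.5, the medians −1.34 and −0.267, and found in *fzr* 88.7. With peaks of at least 197 bp, the *Cdk1-i* median was −0.504, lost and higher in *fzr* 2.15 and 2.15, found in *fzr* 90.5 and lost in both 0. Leaving out a library gave ranges in *Cdk1-i* of 0 to 6 gained, 3.51 to 11.7 lost, 13.7 to 34 higher, 21.6 to 49 lower and a median of −1.08 to 0.64 (0.64 without GFP 2, 0.336 without *Cdk1-i* 1). In *fzr* the ranges were 0 to 3 gained, 6.8 to 13.7 lost, 3.88 to 22.8 higher, 25.2 to 54.1 lower, a median of −4.45 to −0.00997 and 75.6 to 86.7 found. In both they were 0 to 2 gained, 0.971 to 6 lost, 1.94 to 15 higher, 16.7 to 39.8 lower and a median of −2.39 to 1.27 (1.27 without GFP 2, 0.0504 without *fzr* 2). A replicate block, in which a change must hold within replicate 1 and within replicate 2, gave 7.69 higher in *fzr* and 1.92 higher in both, and no other share moved by over 1.5 times. Replicate numbers were not taken as pairs, since the labels do not tie them to a shared batch and there are 2 of them. Same-numbered deviations correlated at 0.125 for GFP and *Cdk1-i*, 0.303 for GFP and *fzr*, and 0.0267 for *Cdk1-i* and *fzr* over 19441 intervals. Without a control the background moved too: lower in both was 39.8 without GFP 1 and 37 without GFP 2, against 28.3 and 32.5 of all intervals.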

Other observations

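Among the 24 other pathway genes, no library had a peak within 500 bp of a 5′ end of *drk*, *Sos*, *Ras85D*, *ksr*, *Raf*, *edl* or *Cbl*. These encode an adaptor, the Ras exchange factor, Ras itself, a scaffold, the kinase below Ras, an inhibitor of Pointed and a ubiquitin ligase. *rl*, the MAP kinase gene, had such a peak in *fzr* 2 alone, at percentile 24.9, and *Dsor1*, which encodes the kinase above it, in 4 libraries (21.7 in GFP 1, 4.68 and 14.4 in *Cdk1-i* and 41.6 in *fzr* 1). Other genes that transmit the signal had such a peak in all 6 libraries, among them *cnk* (88 to 96.5) and *Shc* (82.7 to 93.5), as did the inhibitor gene *kek1* (93.4 to 96.1). Over all protein-coding genes, 31.7% had such a peak in every library. The genes in this paragraph were picked after their values were seen. The lists contain peaks alone, and reads below the threshold at these 5′ ends were not analysed here.

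The peak within 500 bp of a 5′ end of *PTP-ER*, a phosphatase gene that restrains the pathway, was strong in GFP 2 (93.9) and *fzr* 2 (96.5) and absent from the other 4 lists. The distal *pnt* 5′ end had the same pattern, which 2 of the 104 intervals (1.92%) and 683 of all intervals (1.49%) shared. The reverse pattern, peaks in all libraries but GFP 2 and *fzr* 2, was found at the inner *sty* 5′ end, at 3 of the 104 intervals in all (2.88%) and at 940 of all intervals (2.05%). Peak presence at the 50 intervals that varied among libraries was the same in 52% of cases between the GFP replicates, 70% between the *Cdk1-i* replicates and 50% between the *fzr* replicates. Over all varying intervals these shares were 59.7%, 75% and 51.6%. At the 50 intervals the pair with the most shared states was *Cdk1-i* 2 and *fzr* 1 (74%, against 64.2% over all varying intervals, where the *Cdk1-i* replicates shared most), and the pair with the fewest was GFP 1 and *fzr* 2 (38%, against 37.9%).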
